A study of Mus musculus with 10 samples.

Results

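The subject is a set of 9 mouse genes, measured by RNA sequencing in the testes of mice lacking the farnesoid X receptor. They encode the amyloid precursor protein, enzymes that cut it, a subunit of such an enzyme, and proteases that break down small peptides or release them. The members were App, Bace1, Bace2, Ncstn, Mme, Ide, Apeh, Ace and Ren1, and each was found by its gene name as 1 row among the 30719 genes of the deposited count table. The 5 FXR-/- mice (libraries 8 to 12) and the 5 WT mice (libraries 3, 4, 5, 6 and 9) were both taken at postnatal day 10, shared a background of equal parts 129sv and C57Bl6 and gave 1 library of whole testis per mouse. FXR, encoded by Nr1h4, is a nuclear receptor for bile acids; neither the deleted stretch of Nr1h4 nor the use of littermates is given in the labels. The members were chosen by name with their measured CPM difference between FXR-/- and WT in these same libraries in view, so their differences between the genotypes are given as a description. Which members passed the threshold of the fit across all genes is stated in the same way and supports nothing.

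The amyloid precursor protein is a membrane protein that is cut in steps. Alpha-secretases of the ADAM family or a beta-secretase first release its outer part, and the gamma-secretase complex then cuts within the membrane; a beta cut followed by a gamma cut yields amyloid-beta peptide. Neprilysin and the insulin-degrading enzyme break this peptide down, together with hormones such as substance P, natriuretic peptides and insulin. Renin and the angiotensin-converting enzyme act in sequence to make angiotensin II from angiotensinogen, and male germ cells make their own form of the converting enzyme.

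Libraries held 33037427 to 39655170 counts in FXR-/- and 32330029 to 35006180 counts in WT. Nr1h4 itself was close to the detection limit, with 8 to 13 counts in FXR-/- libraries and 13 to 26 counts in WT libraries (log2 fold change -0.84, SE 0.234; edgeR adjusted p = 0.0347), and this call was lost in 10 of 16 alternatives (other scalings, filters or tests, or libraries left out). The summed CPM (counts per 1000000 of the scaled library size) of the 10 Sertoli cell markers was 1827 to 2547 in FXR-/- and 2608 to 2941 in WT, without overlap, and 6 of the 10 fell. All 6 duct epithelium markers rose, with sums of 44.2 to 74.8 CPM in FXR-/- and 19.8 to 30.9 CPM in WT, and 6 of 7 adipocyte markers rose, with sums of 68.5 to 894 CPM in FXR-/- and 21.1 to 123 CPM in WT. The sums of 6 Leydig cell markers overlapped, at 214 to 500.1 CPM in FXR-/- and 366 to 578 CPM in WT, and 1 of the 6, Hsd3b1, fell. The sums of the other marker lists overlapped between the genotypes. These lists covered spermatogonia, meiotic germ cells, spermatids, peritubular and smooth muscle, endothelium, macrophages, fibroblasts with capsule, and skeletal muscle. The spermatogonia sum was 1083 to 1356 CPM in FXR-/- and 850.2 to 1190 CPM in WT. None of these markers was at 0 in all libraries. In whole tissue, fewer cells of a type and less RNA per cell cannot be told apart, and the part of cell composition in the results that follow was not tested.

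**Figure D1:**
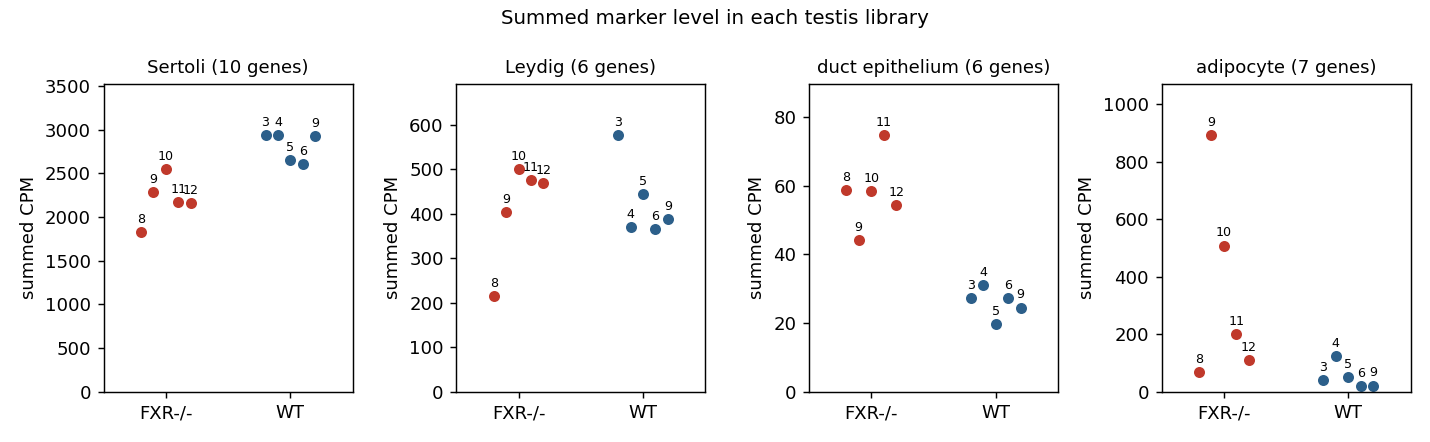
Summed CPM of 4 marker lists (vertical axis) in each library, with FXR-/- libraries on the left and WT libraries on the right of each panel and library numbers beside the points. Sertoli sums lie at 1827 to 2547 in FXR-/- and 2608 to 2941 in WT, duct epithelium sums at 44.2 to 74.8 and 19.8 to 30.9, while Leydig and adipocyte sums overlap between the genotypes.

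All 9 members had a fitted level below WT in FXR-/- testis, as had 8675 of all 18559 tested genes. The median log2 fold change of the members was -0.29, against 0.01 over all tested genes. The differences were uneven. Mme, Ren1 and Ide were lower by 2.80-fold, 1.82-fold and 1.68-fold, whereas the other members differed by 1.08-fold to 1.22-fold. In a fit across all genes (edgeR quasi-likelihood test, adjusted p under 0.05), 6 of the 9 members (App, Ncstn, Mme, Ide, Apeh and Ren1) passed and all 6 were lower, beside 13.9% of all tested genes called in either direction, 7.71% called lower and 6.17% called higher. All 9 had enough counts to be tested. Of these members, 3 were called with at least a 1.5-fold fall, as were 1.19% of tested genes (3.87% in either direction), and in 5 the FXR-/- libraries lay wholly below the WT libraries, as in 6.44% of tested genes. Which members passed depended on the libraries and settings used. Ncstn was not called without FXR-/- library 11 or 12 or without WT library 4, 5 or 9. Apeh was not called with library totals alone as the scaling, with no count filter, without FXR-/- library 9 or 12, without FXR-/- libraries 9 and 10 together or without WT library 5, 6 or 9. Ace was called with the DESeq2 test and without FXR-/- library 8 or 10. The choice of members used this contrast, so nothing is read from these shares or calls.

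**Figure D2:**
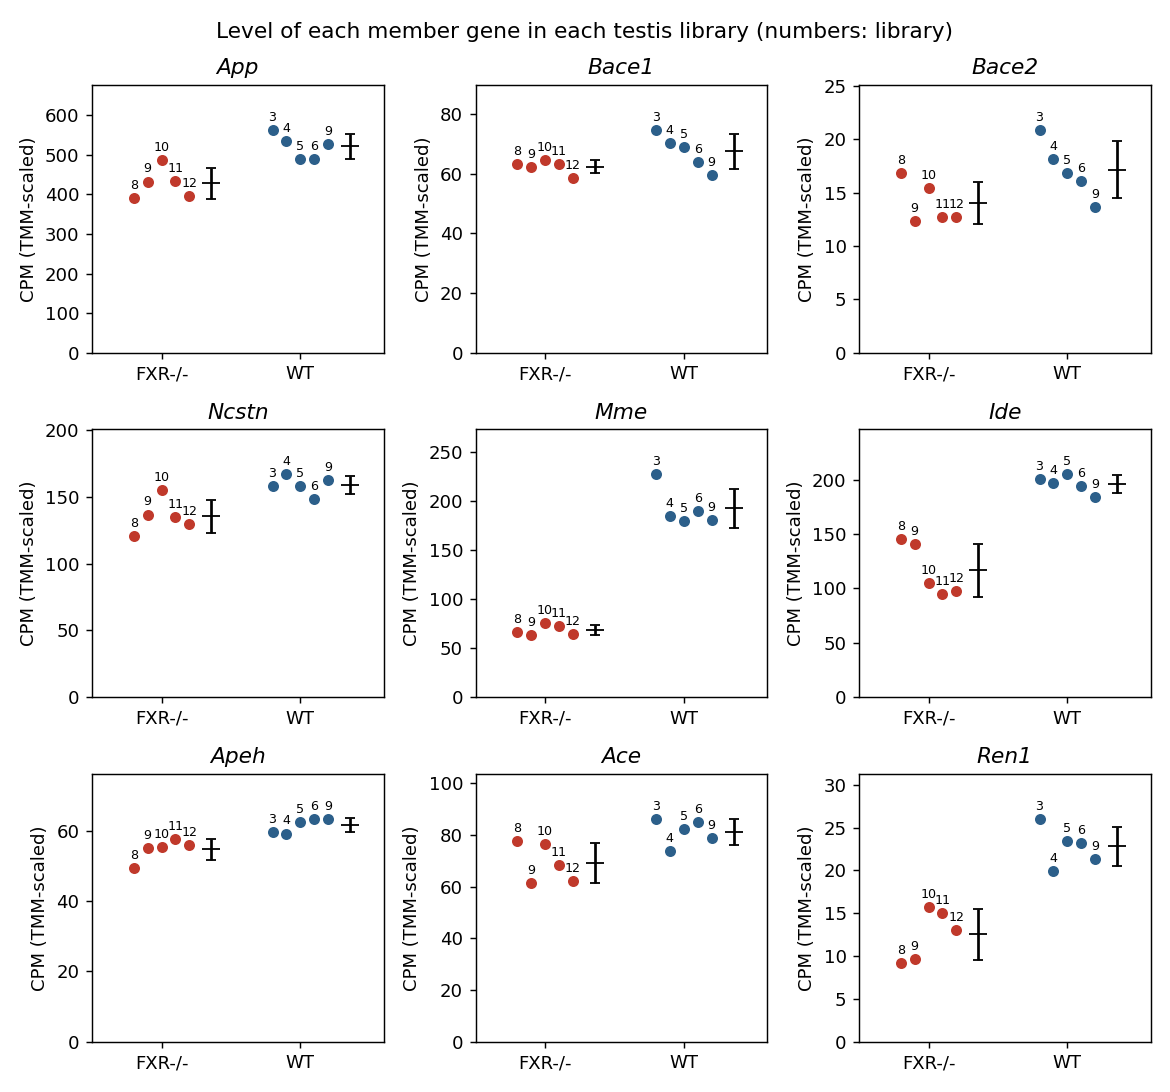
CPM on the TMM-scaled library size (vertical axis, from 0) of each member gene in the 5 FXR-/- libraries (left) and the 5 WT libraries (right); numbers name the libraries and bars give the mean and SD. Mme lies at 63.8 to 76.2 in FXR-/- and 180.1 to 228 in WT, and Ide falls at 2 levels within FXR-/-, near 141 to 145 in libraries 8 and 9 and 95.2 to 105 in libraries 10, 11 and 12.

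App, the precursor protein and common substrate of the secretases (ENSMUSG00000022892, GRCm38 chromosome 16, 84949685 to 85173766, minus strand), was among the best expressed members. It had 390.4, 433, 486, 434 and 396 CPM in FXR-/- libraries 8 to 12, against 564, 536, 490.4, 490.2 and 526 CPM in WT libraries 3, 4, 5, 6 and 9. The genotypes did not overlap, although FXR-/- library 10 came within a few CPM of the lowest WT libraries. The means were 428 ± 38.2 CPM in FXR-/- and 521 ± 31.5 CPM in WT (SD, n = 5 each), a log2 fold change of -0.29 (SE 0.0632). Library 8 was lowest and library 10 highest of the FXR-/- libraries in App, Ncstn and Ren1. The same held for the Sertoli, Leydig and macrophage marker sums, but not for the other members or the other marker sums. The cause of this order was not tested.

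Bace1 and Bace2 encode beta-secretases, of which Bace1 (chromosome 9, 45838580 to 45864399) makes the cut that leads to amyloid-beta and Bace2 (chromosome 16, 97356742 to 97442936) is its close relative. Bace1 had 63.2, 62.2, 64.4, 63.2 and 58.6 CPM in FXR-/- libraries 8 to 12, against 74.8, 70.3, 69.1, 64.0 and 59.5 CPM in WT libraries 3, 4, 5, 6 and 9. The ranges overlapped, and the spread was wider in WT. Bace1 averaged 62.3 ± 2.23 CPM in FXR-/- and 67.5 ± 5.92 CPM in WT (SD, n = 5 each), with a log2 fold change of -0.12 (SE 0.0587). Its exons share 975 bases with Rnf214 on the opposite strand, and the use of strand in counting is not given in the sources used here, so reads from that stretch cannot be told apart. Bace2 was low, at 14.0 ± 1.996 CPM in FXR-/- and 17.1 ± 2.67 CPM in WT (SD, n = 5 each), with overlapping ranges of 12.4 to 16.9 CPM in FXR-/- and 13.7 to 20.9 CPM in WT. The log2 fold change of Bace2 was -0.29 (SE 0.12). Neither gene was among the members called.

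Ncstn encodes nicastrin, the gamma-secretase subunit that receives the substrate (chromosome 1, 172066013 to 172082795, minus strand). It had 121, 137, 155, 135 and 129 CPM in FXR-/- libraries 8 to 12, against 158, 167, 158, 149 and 163 CPM in WT libraries 3, 4, 5, 6 and 9. Of the FXR-/- libraries, 4 lay below all WT libraries and library 10 lay above the lowest of them. The means were 136 ± 12.7 CPM in FXR-/- and 159 ± 6.81 CPM in WT (SD, n = 5 each), a log2 fold change of -0.23 (SE 0.0608). Its exons share 195 bases with Copa on the opposite strand.

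Mme encodes neprilysin (also CD10), a zinc metallopeptidase of the cell surface that degrades amyloid-beta, substance P and natriuretic peptides, and it showed the largest difference of the set (ENSMUSG00000027820, chromosome 3, 63241537 to 63386030, plus strand). It had 66.2, 63.8, 76.2, 72.8 and 64.8 CPM in FXR-/- libraries 8 to 12, against 228, 185, 180.1, 190.4 and 181 CPM in WT libraries 3, 4, 5, 6 and 9. Every FXR-/- library held less than every WT library, with a wide empty interval between them, and WT library 3 stood above the other WT libraries. The means were 68.7 ± 5.45 CPM in FXR-/- and 193 ± 20.1 CPM in WT (SD, n = 5 each), a log2 fold change of -1.49 (SE 0.0747). These values rest on 2247 to 3009 counts per FXR-/- library and 5747 to 7570 counts per WT library. The fitted change ran from -1.53 to -1.42 when single libraries were left out. The Sertoli marker sum, lower in the same libraries, averaged 2198 ± 260 CPM in FXR-/- and 2813 ± 168 CPM in WT (SD, n = 5 each). The part of that sum in the Mme difference was not tested.

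The 250 bases before the first of the 3 transcription starts that RefSeq lists for Mme are shown. This gene was taken because it carries the largest difference and has several annotated starts, which are summed in a gene-level count. The 3 RefSeq starts span 884 bases, with the first at 63295211. The GENCODE gene begins farther upstream, at 63241537, so the stretch shown does not precede the earliest annotated start. The sequences in this report are given 5′ to 3′ on the gene's strand, from RefSeq on GRCm38.p6, with capitals for matches on either strand to the motifs searched in the 10 promoter windows of the 7 members in the RefSeq table (App, Ncstn, Mme, Ide, Apeh, Ace and Ren1).
Mme first start, chr3:63294961-63295210, plus strand: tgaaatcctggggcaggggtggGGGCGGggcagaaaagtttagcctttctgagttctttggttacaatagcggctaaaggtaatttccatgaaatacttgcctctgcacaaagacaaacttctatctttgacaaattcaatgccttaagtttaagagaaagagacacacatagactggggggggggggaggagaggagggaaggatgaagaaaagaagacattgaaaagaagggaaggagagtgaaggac
This stretch was 45.6% G and C, against 73.2% and 73.6% before the later RefSeq starts of Mme, and its only match was a GC box. The motifs were the nuclear receptor half-site AGGTCA (in 16.3% of all 32851 promoter windows of 300 bases, which run from 250 before to 50 after the start), the half-site followed by its reverse complement TGACCT with 1 base of any kind between them, the inverted repeat to which FXR binds with its partner RXR (0.00913%), the TATA box TATAAA (13.6%), the GC box GGGCGG (35.7%), CCAAT (37.4%) and TGAGGTCA, which contains the half-site and resembles a cyclic AMP response element (2.17%). The inverted repeat was not matched in any of the 10 windows. With 0.00913% of all windows matched, this was likely beforehand and says nothing about FXR sites. Repeats with altered letters and sites outside the windows were not searched. The half-site was matched in the windows of Ncstn, Ide and Ace. The RefSeq start used for Ide lies 3308 bases from the nearest GENCODE start, which belongs to a transcript that keeps an intron. For the other windows the nearest GENCODE start was at most 164 bases away and protein-coding. The Ide window may therefore not hold the promoter of this gene. The only TATA box in forward orientation among the 10 windows was that of Ren1, with its first base 29 bases before the start. A match describes letters and not a bound site.

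Ide encodes insulysin, a zinc metallopeptidase that degrades insulin and amyloid-beta (ENSMUSG00000056999, chromosome 19, 37268743 to 37337852, minus strand). It had 145, 141, 105, 95.2 and 97.4 CPM in FXR-/- libraries 8 to 12, against 201, 197, 205, 195 and 184 CPM in WT libraries 3, 4, 5, 6 and 9. All FXR-/- libraries lay below all WT libraries, and within FXR-/- the values of libraries 8 and 9 stood well above those of libraries 10, 11 and 12, whereas WT libraries were close together. The means were 117 ± 24.3 CPM in FXR-/- and 196 ± 8.03 CPM in WT (SD, n = 5 each), which is a coefficient of variation of 20.8% in FXR-/- and 4.09% in WT. The log2 fold change was -0.75 (SE 0.114).

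Apeh encodes the acylpeptide hydrolase, a serine peptidase that removes acetylated residues from the ends of peptides (chromosome 9, 108085413 to 108094606, minus strand). It had 49.6, 55.1, 55.4, 57.7 and 56.1 CPM in FXR-/- libraries 8 to 12, against 59.8, 59.3, 62.5, 63.5 and 63.3 CPM in WT libraries 3, 4, 5, 6 and 9. The genotypes did not overlap, but the highest FXR-/- and the lowest WT library were close. Apeh averaged 54.8 ± 3.08 CPM in FXR-/- and 61.7 ± 1.99 CPM in WT (SD, n = 5 each), with a log2 fold change of -0.17 (SE 0.0462).

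Ace and Ren1 belong to the renin-angiotensin system. Ren1 encodes renin, which cuts angiotensinogen, and in mice is also made by Leydig cells (ENSMUSG00000070645, chromosome 1, 133350510 to 133360325). It had 9.22, 9.62, 15.7, 15.0 and 13.0 CPM in FXR-/- libraries 8 to 12, against 26.1, 19.97, 23.4, 23.2 and 21.3 CPM in WT libraries 3, 4, 5, 6 and 9. The genotypes did not overlap, and FXR-/- libraries 8 and 9, which were highest in Ide within that genotype, were lowest in Ren1. The means were 12.5 ± 2.99 CPM in FXR-/- and 22.8 ± 2.32 CPM in WT (SD, n = 5 each), a log2 fold change of -0.86 (SE 0.146). FXR-/- library 8 also had the lowest Leydig marker sum, at 214 CPM, while the sums of libraries 9 to 12, at 403 to 500.1 CPM, lay within the WT range of 366 to 578 CPM. Mice of 129 strains carry Ren2, a nearly identical renin gene that C57BL/6 mice lack, and with both strains in the background the Ren1 counts are uncertain, because reads of the copy could have been counted there; Ren2 was not analysed here.

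Ace, the angiotensin-converting enzyme (ENSMUSG00000020681, chromosome 11, 105967945 to 105989964), had 77.5, 61.3, 76.5, 68.3 and 62.2 CPM in FXR-/- libraries 8 to 12, against 86.3, 73.9, 82.2, 85.0 and 78.7 CPM in WT libraries 3, 4, 5, 6 and 9. The genotypes overlapped, with 3 of 5 FXR-/- libraries below all WT libraries. The means were 69.2 ± 7.65 CPM in FXR-/- and 81.2 ± 5.04 CPM in WT (SD, n = 5 each), a log2 fold change of -0.23 (SE 0.0734). The gene has 2 RefSeq starts, 7241 bases apart, and the downstream one lies in intron 12 of the longest annotated transcript. Both are shown, since the long somatic form and the shorter germ cell form of the enzyme are known to arise from separate promoters and a gene-level count adds them together.
Ace upstream start, chr11:105967698-105967944, plus strand: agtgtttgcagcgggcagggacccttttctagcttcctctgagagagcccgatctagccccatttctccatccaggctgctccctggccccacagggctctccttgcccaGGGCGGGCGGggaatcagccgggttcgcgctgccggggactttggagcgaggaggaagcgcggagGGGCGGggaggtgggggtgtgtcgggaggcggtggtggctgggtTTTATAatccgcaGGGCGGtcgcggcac
Ace intron 12 start, chr11:105974939-105975188, plus strand: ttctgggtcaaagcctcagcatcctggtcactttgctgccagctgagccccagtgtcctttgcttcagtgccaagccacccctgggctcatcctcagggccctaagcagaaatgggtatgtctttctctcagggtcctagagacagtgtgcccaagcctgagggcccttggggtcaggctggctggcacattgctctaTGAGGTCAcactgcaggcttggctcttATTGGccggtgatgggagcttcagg
The upstream stretch held GC boxes and a reversed TATA box match, and the intronic one held TGAGGTCA, with its first base 52 bases before the start, and a reversed CCAAT match. The 4 spermatid markers (Prm1, Prm2, Tnp1 and Acrv1) summed to 0.807 to 1.06 CPM in FXR-/- and 0.783 to 1.04 CPM in WT.

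Levels were compared between genes after division by the length of all annotated exons of a gene. In FXR-/- testis the order was Ncstn (34.1 ± 3.18 CPM per kb), App (32.9 ± 2.94), Ide (15.6 ± 3.24), Ace (13.1 ± 1.45), Bace1 (9.82 ± 0.351), Apeh (9.69 ± 0.545), Ren1 (7.56 ± 1.81), Mme (5.96 ± 0.472) and Bace2 (1.78 ± 0.253 CPM per kb; SD, n = 5 each). In WT testis it was App (40.1 ± 2.42 CPM per kb), Ncstn (40.0 ± 1.71), Ide (26.2 ± 1.07), Mme (16.7 ± 1.74), Ace (15.4 ± 0.952), Ren1 (13.8 ± 1.40), Apeh (10.9 ± 0.352), Bace1 (10.6 ± 0.932) and Bace2 (2.17 ± 0.338 CPM per kb; SD, n = 5 each). Mme was thus the member that stood 8th of 9 in FXR-/- and 4th in WT. In WT the libraries of Mme and Ace, of Ace and Ren1, of App and Ncstn, and of Apeh and Bace1 overlapped on this scale. In FXR-/- the overlapping neighbours were Ncstn and App, Ide and Ace, Bace1 and Apeh, Apeh and Ren1, and Ren1 and Mme.

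**Figure D3:**
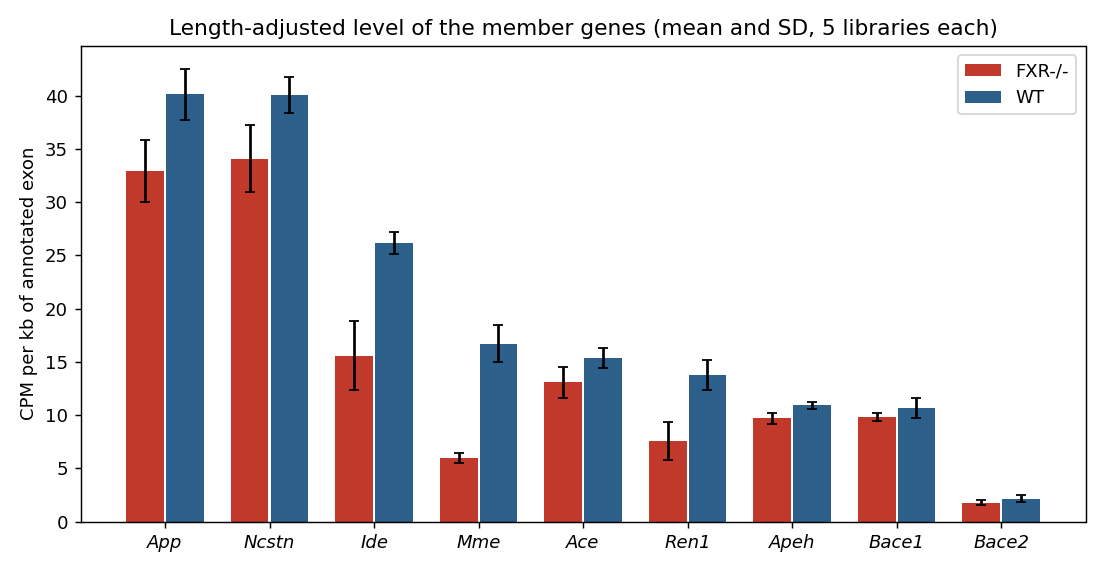
Mean level per kb of annotated exon (vertical axis, CPM per kb; error bars SD, n = 5 each) of the member genes, FXR-/- bars left of WT bars, ordered by the WT level. Mme stands at 5.96 in FXR-/- and 16.7 in WT, Apeh at 9.69 and 10.9, Bace1 at 9.82 and 10.6, and Bace2 at 1.78 and 2.17.

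Other genes of the same pathways, in 8 lists, were tested in the same fit. Of 100 such genes with a row, 88 were tested; 14 fell, 7 rose and 67 did not pass, and the share called was 23.9%, against 13.9% of all tested genes. The median log2 fold change of the 88 was -0.04. The split between falls and rises depended on scaling, since 11 fell and 11 rose with library totals alone. Without FXR-/- library 11, FXR-/- library 12 or WT library 4, the number called was 12, 13 and 13 (edgeR adjusted p under 0.05).

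Among the secretases and relatives of App, Aplp2, the App-like protein gene with the higher level of the pair, fell to 400.3 ± 32.4 CPM in FXR-/-, against 466 ± 9.80 CPM in WT (SD, n = 5 each; edgeR adjusted p = 0.0191), and Aplp1 did not pass. Of the 3 alpha-secretases, Adam17 (1.12-fold) and Adam9 (1.18-fold) fell (edgeR adjusted p = 0.0387 and 0.0392) and Adam10 did not pass. The calls of Adam17 and Adam9 were lost in 11 and 9 of 17 alternatives, and that of Aplp2 without FXR-/- library 11 or 12.

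In the list for binding, sorting and clearing App and its peptide, 5 of 17 tested genes fell and 1 rose. Sort1, which encodes the sorting receptor sortilin, fell to 94.8 ± 13.5 CPM in FXR-/-, against 130.1 ± 5.74 CPM in WT, and Lrp1, a large endocytic receptor, fell to 513 ± 39.1 CPM in FXR-/-, against 606 ± 30.6 CPM in WT (SD, n = 5 each; edgeR adjusted p = 0.00623 and 0.0173). Itm2c, whose product binds App, fell 1.25-fold (edgeR adjusted p = 0.014). Clu, for the secreted chaperone clusterin and a known Sertoli cell product, fell 1.52-fold (edgeR adjusted p = 0.0109), in the same direction as the Sertoli marker sum; the part of that sum in its fall was not tested. Bri3 (fell 1.18-fold) and the retromer subunit gene Vps35 (rose 1.14-fold) complete the count and were named after their values were seen. Bri3 encodes brain protein I3, while the same symbol is also used for the product of Itm2c. It is counted among the 5 and among the related genes, but its place among genes acting on App is not established. Vps35 lost its call in 8 of 17 alternatives, and Lrp1 and Bri3 each lost theirs in 1, without FXR-/- library 11 and without WT library 4.

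Of 9 tested genes of the neprilysin and insulysin families, Nrd1, which encodes nardilysin, fell 1.29-fold, and Pitrm1, the mitochondrial presequence peptidase that also degrades amyloid-beta, fell 1.21-fold (edgeR adjusted p = 0.0147 and 0.00939), while 7 did not pass, among them the endothelin-converting enzyme gene Ece1 and the neprilysin-like Mmel1 (named after their values were seen). Of 26 other oligopeptidases and aminopeptidases, 3 rose, 1 fell and 22 did not pass. Dpp4, a dipeptidyl peptidase of the cell surface, rose 1.92-fold, at 12.1 ± 4.17 CPM in FXR-/- and 6.30 ± 1.08 CPM in WT, and Lta4h, leukotriene A4 hydrolase, rose 1.32-fold, at 59.2 ± 0.890 CPM in FXR-/- and 45.0 ± 2.91 CPM in WT (SD, n = 5 each; edgeR adjusted p = 0.0143 and 0.000356). Nln, neurolysin, rose 1.14-fold and Rnpepl1 fell 1.15-fold (edgeR adjusted p = 0.0238 and 0.0468); Nln lost its call without FXR-/- library 11 or WT library 4, and Rnpepl1 in 11 of 17 alternatives.

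In the renin-angiotensin list, 3 of 11 tested genes rose and none fell, whereas Ren1 was lower. Agtr2, the type 2 angiotensin II receptor, rose to 34.0 ± 3.23 CPM in FXR-/-, against 21.1 ± 4.54 CPM in WT, without overlap (SD, n = 5 each; edgeR adjusted p = 0.0059). Tmem27, which encodes collectrin, and Cpa3, a mast cell carboxypeptidase, rose 2.04-fold and 2.83-fold (edgeR adjusted p = 0.0321 and 0.0206) at about 1 CPM or less in both genotypes, and lost their calls in 7 and 3 of 16 alternatives, Cpa3 without FXR-/- library 12, without WT library 4 and without FXR-/- libraries 9 and 10 together. Of 14 tested genes for peptides that neprilysin degrades and for their receptors, Npr3, the clearance receptor for natriuretic peptides, fell to 23.3 ± 1.56 CPM in FXR-/-, against 31.3 ± 1.05 CPM in WT (SD, n = 5 each; edgeR adjusted p = 0.000612). Npr2, the receptor of C-type natriuretic peptide, fell 1.19-fold (edgeR adjusted p = 0.0248), a call lost without FXR-/- library 11 or 12 and without WT library 5, and 12 did not pass.

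**Figure D4:**
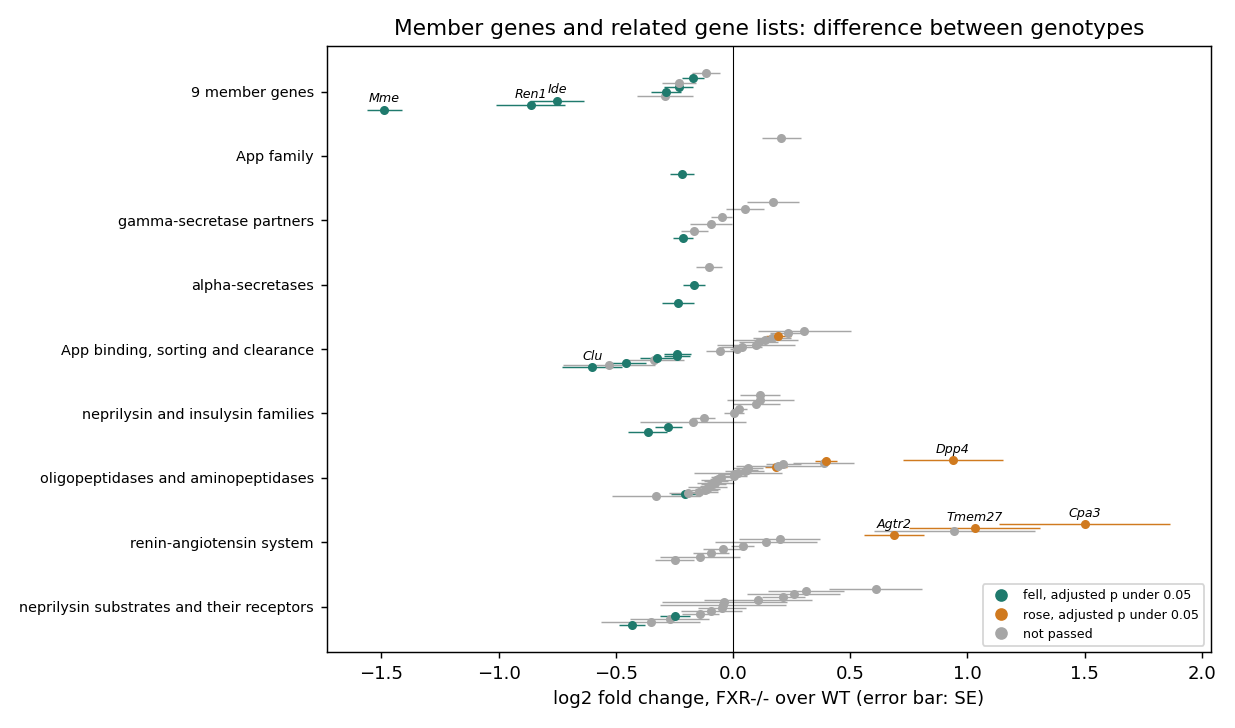
Log2 fold change of FXR-/- over WT (horizontal axis; bars are SE) for the 9 members in the top row and the tested genes of 8 related lists below; colours mark genes that fell, rose or did not pass an edgeR adjusted p of 0.05. Mme (-1.49), Ren1 (-0.86) and Ide (-0.75) lie to the left of the called genes of the lists, of which Clu is lowest (-0.60), and Agtr2, Tmem27, Cpa3 and Dpp4 lie to the right.

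The members lie on 6 chromosomes. Within 1 Mb of Mme, 2 of 9 other tested genes were called, and both, Plch1 and Arhgef26, rose. Within 1 Mb of Ide, 3 of 22 were called (Btaf1 fell, Ppp1r3c and Cep55 rose), and within 1 Mb of Ren1, 7 of 33, of which the nearest, Etnk2, fell 3.2 kb away, followed by Snrpe (rose), Atp2b4 (fell) and Chil1 (rose). None of 7 tested genes around App was called, 4 of 46 around Ncstn (F11r, Usf1 and B4galt3 fell, Crp rose) and 9 of 75 around Apeh (nearest Traip and Sema3f, which rose, and Tcta and Usp4, which fell). Of the chromosomes that hold members, chromosome 3, with Mme, had 19.6% of its 841 tested genes called, against 10.3% to 13.3% on the other chromosomes and 13.9% in all.

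The genes closest to Mme, Ide and Ren1 in pattern were sought among 13915 candidates. These were tested genes averaging 1 CPM or more, without pseudogenes and without gene models that have Gm, Rik or accession-like names. The measure was the root-mean-square difference between centred log2 CPM profiles over the 10 libraries. Closest to Mme were Wnt2b (0.142 on the log2 scale), also on chromosome 3, with 5.43 ± 0.344 CPM in FXR-/- and 14.0 ± 0.787 CPM in WT, and Lair1 (0.173). Closest to Ide were Ryr1 (0.132), with 5.87 ± 1.02 CPM in FXR-/- and 10.1 ± 0.625 CPM in WT, and Tmem100 (0.133); in both, as in Ide, FXR-/- libraries 8 and 9 were the highest of their genotype. Closest to Ren1 were Fbxo17 (0.168) and D3Ertd751e (0.179), the first with 25.5 ± 3.84 CPM in FXR-/- and 50.6 ± 5.34 CPM in WT (SD, n = 5 each). These measures are descriptions, since genes with a difference between genotypes of like size resemble each other by that alone. Profiles also include the order of libraries within a genotype. The order that Ryr1 and Tmem100 share with Ide is thus part of how they were chosen.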

How the data were processed

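Whole testis RNA was made into libraries with an Illumina TruSeq RNA kit, per the labels' protocols, and sequenced on 1 flowcell, per the series' design text. The submitters' processing notes name FastQC 0.10.1, CASAVA, Bowtie, TopHat2 2.0.10, Bowtie2 2.1.0 and mm10; which counter, annotation and strand setting were used is not given in the sources used here. In the deposited table were raw counts per gene made by the authors, which were used as deposited; the authors' normalized columns had lost their decimal marks and were not used. After filterByExpr and TMM scaling, the 18559 genes left were tested by genotype with the two-sided quasi-likelihood test of edgeR 4.0.16 in R 4.3.3, with p-values adjusted by Benjamini-Hochberg and called under 0.05. Log2 fold changes are FXR-/- over WT, the SE is the fold change over the root of F, and CPM uses TMM-scaled library sizes. DESeq2 1.42.0, other scalings, other filters and left-out libraries served as alternatives. Positions are from GENCODE M21 on GRCm38, the build of mm10, to which 30212 of 30719 genes matched by identifier. The members and lists were chosen with earlier results of these data known. Named genes were all members, Nr1h4, up to 4 called genes per list by smallest p, called neighbours within 1 Mb of called members (up to 4) and the 2 genes closest in pattern to each member called with at least a 1.5-fold change; others are marked. The p-values measure the spread between individual mice. Some results of the related gene lists are not reported here.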

Additional observations from a re-analysis of the deposited data

Results flagged for a closer look

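Among 18 groups of 5 values (9 members in 2 genotypes), 1 held a library far from the others. Mme had 228 CPM in WT library 3, while the next WT library had 190.4 CPM and the lowest 180.1 CPM, a gap of 0.785 of the range against a limit of 0.71. By chance about 1 group in 20 is marked this way. WT library 3 also had the highest App, Bace1, Bace2, Ace and Ren1 values and the highest Leydig marker sum (578 CPM) of the WT libraries. Its sum of 6 spermatogonia markers was the lowest in WT (850.2 CPM, the others 965.4 to 1190 CPM). The same held for 6 meiotic germ cell markers (487.6 CPM, the others 682.6 to 1119 CPM). Without WT library 3 the log2 fold change of Mme was -1.42.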

How the results depend on the processing

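A log2 fold change below 0, found with all libraries for 8675 of 18559 tested genes, was kept by all 9 members in each of the 17 alternatives. With single libraries left out, it ran from -1.53 to -1.42 for Mme, -0.96 to -0.77 for Ren1, -0.84 to -0.68 for Ide and -0.34 to -0.26 for App, and 4 to 7 members were called. Ncstn was not called in 5 alternatives and Apeh in 8, while Ace was called in 3; the cause was not tested. These values come from the contrast used to choose the members and give it no support. The number called over all genes ran from 1427 (without FXR-/- library 11) to 2867 (without FXR-/- library 10), against 2576 with all libraries, and was 1635 without FXR-/- library 12 and 1601 without WT library 4. Of the related genes, 12 to 24 were called, against 21. The DESeq2 test called 3485 genes, 7 members and 27 related genes. With library totals alone, 61.5% of called genes rose, against 44.5% with TMM. Divided by the longest transcript in place of all exons, levels in FXR-/- and WT were 52.4 and 63.8 CPM per kb for App, 44.9 and 52.8 for Ncstn, 23.5 and 39.6 for Ide, 8.55 and 24.0 for Mme, and 13.0 and 14.7 for Apeh, with 10.3 for Bace1 in FXR-/- and 16.6 for Ace in WT; Mme then stood 7th in FXR-/- and 4th in WT. Within 5 Mb, the share of tested genes called was 22.5% around Mme, 13.5% around Bace1, 12.8% around Ide and 12.5% around Ren1. It was 10.9% around Ace, 10.0% around App and Apeh, 9.76% around Bace2 and 8.51% around Ncstn, against 13.9% in all. Within 1 Mb it was 15.4% around Bace2, 11.5% around Bace1 and 8.11% around Ace. No paired analysis was possible because the genotypes share only 1 library number, 9. Depth limits Nr1h4, at 8 to 26 counts per library.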

Other observations

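Within FXR-/-, libraries 8 and 9 stood apart from libraries 10, 11 and 12 in Ide, in Ren1 and in Mpzl2. In App, Bace1, Bace2, Ncstn, Mme, Apeh and Ace, libraries 8 and 9 were not set apart from the rest. Mpzl2, which encodes an adhesion protein and lies 785 kb from Bace1 (named after its values were seen), had 2.98, 5.03, 29.0, 25.7 and 22.9 CPM in FXR-/- libraries 8 to 12, against 4.31, 4.63, 4.67, 3.80 and 5.00 CPM in WT libraries 3, 4, 5, 6 and 9. In Mpzl2 the FXR-/- libraries 8 and 9 were thus near the WT level and libraries 10, 11 and 12 far above it, while in Ide all FXR-/- libraries were below WT. Mpzl2 and Ide lie on different chromosomes (9 and 19), and no label distinguishes these libraries. Among the tested neighbours of Ide only the called ones were viewed for this split, and they did not show it. The cause of the split was not tested.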
